A study of Mus musculus with 26 samples.

Results

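Snai1, Snai2, Twist1, Twist2, Zeb1, Zeb2 and Prrx1 are transcription factor genes of mesenchymal cells, and they were followed here in fibroblasts carrying either of 2 oncogenes. The members were the genes of these 7 symbols, of 18193 genes with a probe set assigned to a single gene, and all of their probe sets were taken whatever their value. They had 20 of the 34945 single-gene probe sets, and 17 of those 20 passed a filter on low signal that 23134 probe sets passed. The probe sets that did not pass were Zeb1 1446127_at, Zeb2 1454200_at and Prrx1 1458004_at, with signals of at most 133, 67.6 and 66.7 on any array. All 7 genes kept at least 1 probe set.

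Snail proteins (Snai1 and Snai2) and Zeb proteins (Zeb1 and Zeb2) are zinc finger repressors that bind E-box sequences and are known for silencing epithelial genes such as Cdh1, which codes for E-cadherin. Twist1 and Twist2 are basic helix-loop-helix factors that pair with E proteins, and Prrx1 is a paired-related homeobox factor of limb and craniofacial mesenchyme. In epithelial and carcinoma cells these factors drive epithelial-mesenchymal transition, the loss of epithelial junctions and gain of motility. Embryonic fibroblasts are mesenchymal to begin with and express such factors without any transition.

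The cells were immortalized mouse embryonic fibroblasts (MEFs) of 3 parental lines named WA, WB and WC. Each line had been infected with pBabe retroviral vectors that carried v-src, a tyrosine kinase gene that came from Rous sarcoma virus, or human c-myc, or with the empty pBabe-puro vector, so that all groups had gone through retroviral infection. There were 26 Affymetrix arrays in 9 groups of line and vector, with 3 arrays in each group except v-src cells of WB, which had 2, its replicate 1 not being analysed here. The sources used here do not give how the lines were immortalized, nor whether infected cells were kept as pools or clones. The labels do not say whether replicate arrays came from separate cultures. The tests within a line therefore set a change only against array-to-array spread, part or all of which can be technical.

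All arrays had the same trimmed mean signal of 500, and their medians lay between 89.0 and 134.6. All 12 fibroblast markers examined, among them Col1a1, Vim and Fn1, passed the filter. Their summed signal per line was 101173 to 120732 in v-src cells, 102960 to 108072 in c-myc cells and 131107 to 147063 in empty-vector cells. Of 10 epithelial markers 9 passed the filter, with sums of 3024 to 5699 in v-src cells, 2090 to 3068 in c-myc cells and 1819 to 2979 in empty-vector cells. These sums include Epcam on 1447899_x_at, whose group means ran from 492 up to 3818, and without it they were 1406 to 1881 in v-src cells, 967 to 1598 in c-myc cells and 807 to 1432 in empty-vector cells. Cdh1 itself did not pass, with group means between 25.9 and 105. Of other lineages, 4 of 8 endothelial markers passed the filter, 3 of 8 of macrophages and blood, 4 of 7 of skeletal muscle and 6 of 7 of neural and glial cells, and the summed neural and glial markers were 4004 to 4392 in v-src cells, 2972 to 4238 in c-myc cells and 4090 to 7758 in empty-vector cells. In bulk RNA, fewer cells of a type and less RNA per cell cannot be told apart. Several arrays correlated less with their group mates than the mates did with each other. The gap was widest for WA empty replicate 3 (mean r of 0.964 against 0.975). After it came WB c-myc replicate 3 (0.968 against 0.974) and then WC c-myc replicate 1 (0.961 against 0.966). Results that rest on WA empty replicate 3 or WB c-myc replicate 3 are given with and without them.

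In every line Snai2 was lower in c-myc cells than in empty-vector cells, while the brightest probe sets of Zeb1 and Zeb2 were higher in v-src cells than in c-myc cells. Snai1 fell with c-myc in WA and WC and rose in WB. Twist2 and the brightest probe set of Zeb1 differed mainly by parental line, with WC low in the first and high in the second. A signal of one probe set is not comparable with that of another, since probes differ in brightness, so all comparisons are within a probe set. Differences are on a log2 scale, log2(signal + 23), with limma's standard error (SE), and a probe set was called when its Benjamini-Hochberg adjusted p over all 23134 probe sets was under 0.05. Comparisons over the lines rest on 9 averages of line and vector (n = 3 lines), and those within a line on the single arrays.

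**Figure D1:**
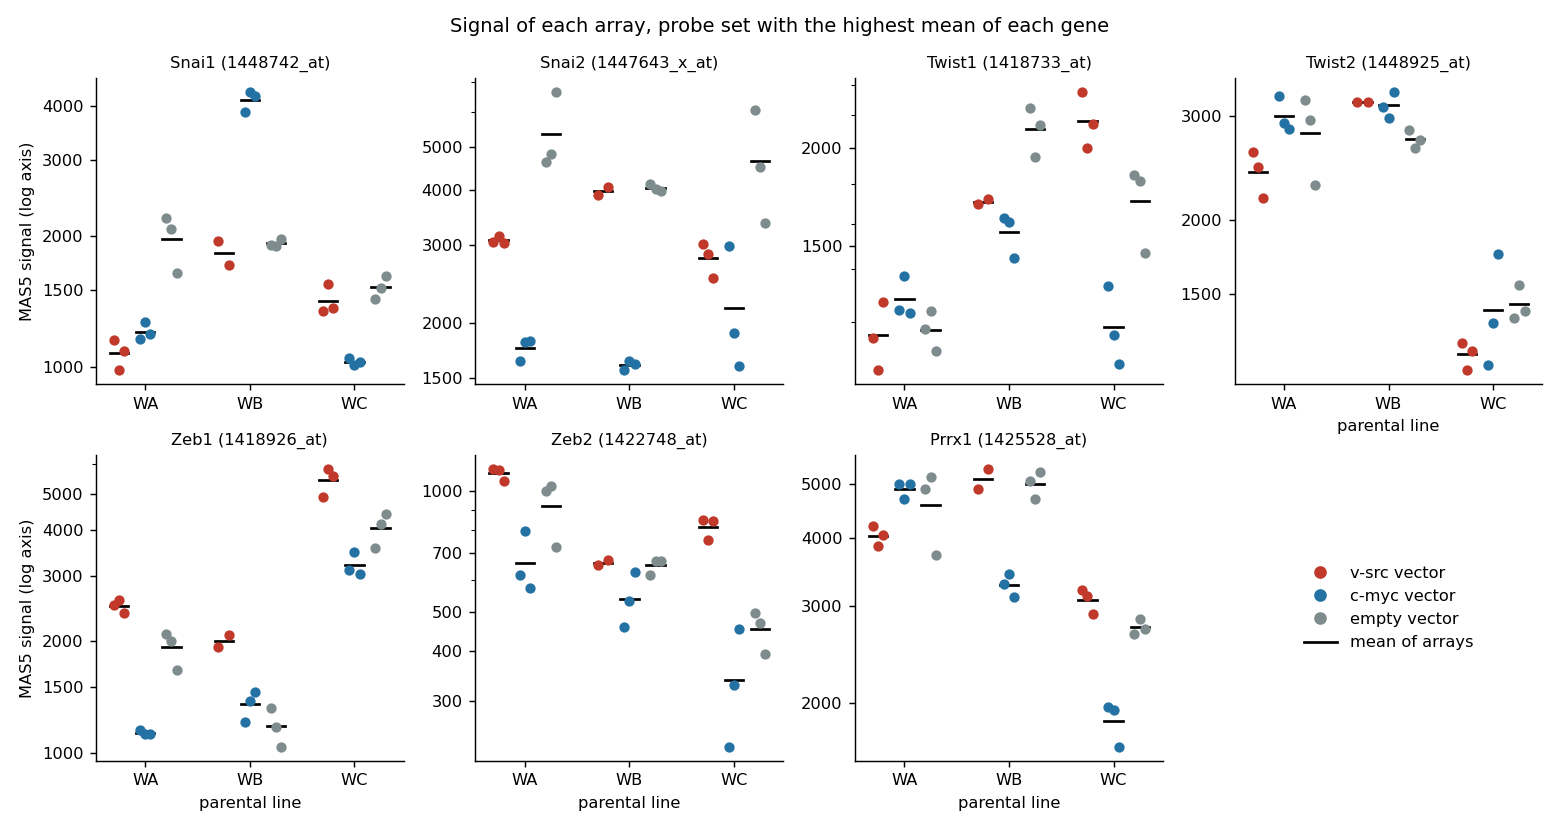
MAS5 signal (log axis) of each array for the probe set with the highest mean of each of the 7 genes, by parental line, with v-src, c-myc and empty-vector cells from left to right. Points are arrays and bars are means of arrays. The c-myc points of Snai2 lie below the empty-vector points in every line, the WB c-myc points of Snai1 lie between 3862 and 4291, above all other points of that gene, and the WC points of Twist2 and Zeb1 lie apart from those of WA and WB.

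Over the 17 probe sets, 2 rose and 6 fell with c-myc in WA (18.9% and 16.7% of all probe sets tested), 1 and 6 in WB (12.3% and 13%) and 1 and 8 in WC (17.4% and 16.9%). With v-src 1 was higher and 3 lower in WA (12.3% and 13.5% of all), 5 and 0 in WB (11.5% and 12.9%) and 8 and 2 in WC (12.8% and 14.6%). A c-myc effect that differed between lines was called for 9 of the 17, against 13.6% of all probe sets, and the v-src effect for 7, against 11.8%. The median change of the 17 with c-myc over the lines was -0.27, beside 0.05 for all probe sets, and with v-src it was 0.23, beside 0.01. Prrx1 and Zeb2 hold 9 of the 17 probe sets. With 1 probe set for each of the 7 genes the median was -0.29 with c-myc, beside 0.04 for all genes, 0.00481 with v-src, beside 0.02, and 0.36 for v-src against c-myc, beside -0.02. With arrays scaled to their medians, 3 of the 17 had a c-myc effect that differed between lines, beside 1295 of all probe sets.

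**Figure D2:**
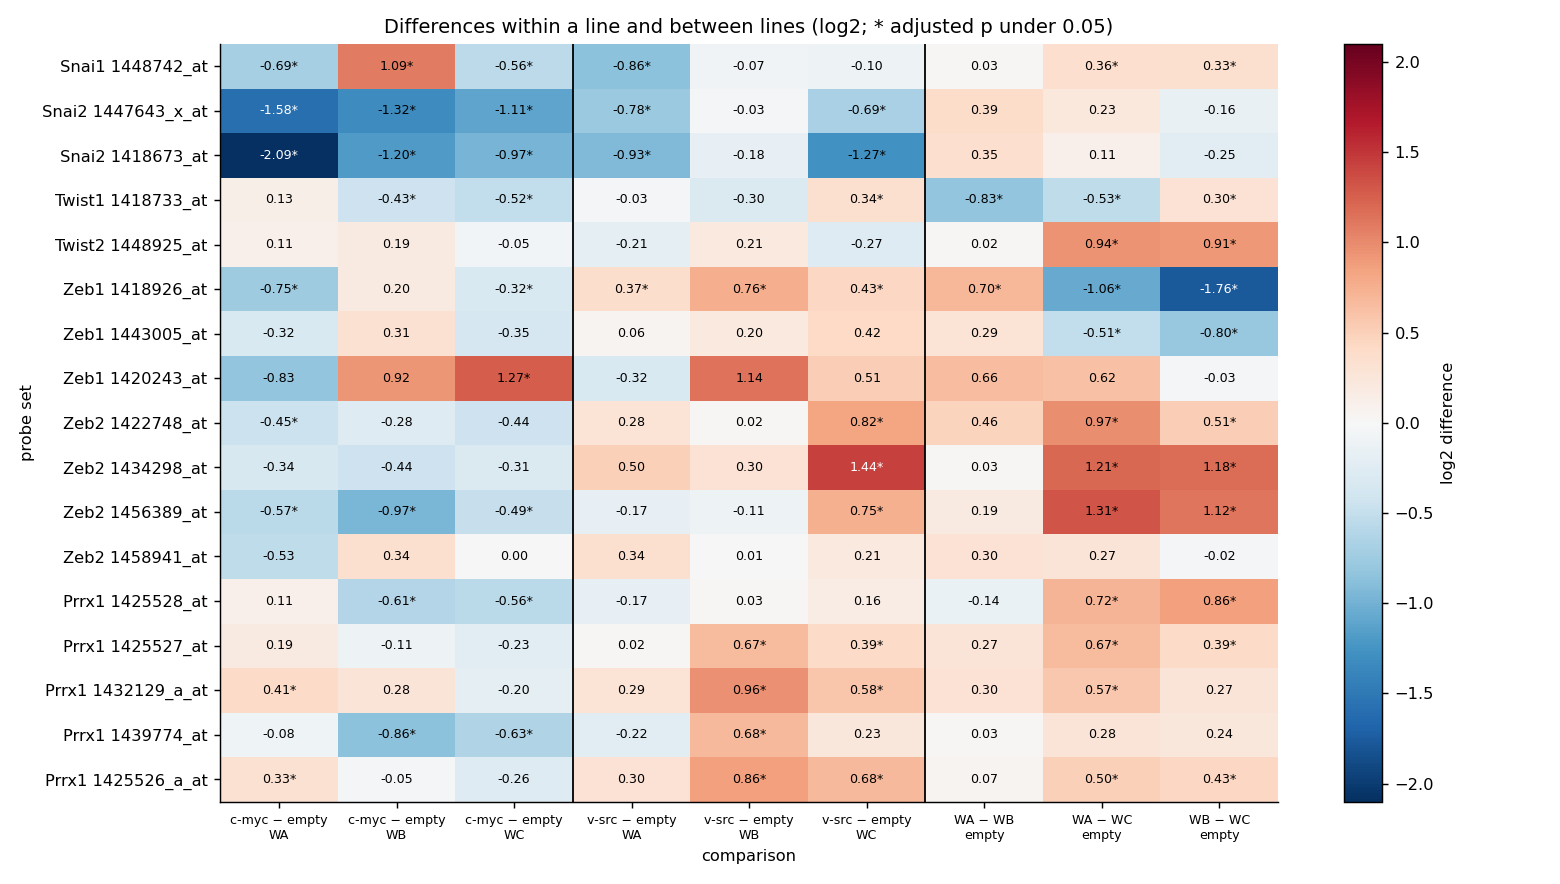
Log2 difference of the 17 probe sets past the filter (rows) for c-myc minus empty and v-src minus empty in each line and for pairs of lines with the empty vector (columns), with an asterisk where the adjusted p was under 0.05. The Snai1 row has -0.69, 1.09 and -0.56 with c-myc in WA, WB and WC, both Snai2 rows are negative in those columns, and the Zeb1 1418926_at row has -1.06 and -1.76 for WA and WB against WC.

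Snai1 codes for Snail, an early repressor of epithelial genes, and had 1 probe set, 1448742_at. In WA its signal was 1150.2, 981 and 1088 in v-src cells, 1155, 1264 and 1191 in c-myc cells, against 2200.1, 2073 and 1646 in empty-vector cells. The WB arrays had 1953 and 1710.3 in v-src cells, 3862, 4291 and 4214 in c-myc cells, against 1903, 1893 and 1972 in empty-vector cells. The WC arrays had 1340.3, 1553 and 1363 in v-src cells, 1044, 1011 and 1024 in c-myc cells, against 1431, 1519 and 1618 in empty-vector cells. The c-myc arrays did not overlap the empty-vector arrays in any line, but they lay below them in WA and WC and above them in WB. The v-src arrays lay below the empty-vector arrays in WA and overlapped them in WB and WC. The order of group means began with c-myc cells of WB, followed by WA empty, WB empty and WB v-src cells, whose arrays overlapped. WC empty and WC v-src cells came next and overlapped each other, and the lowest groups were WA c-myc, WA v-src and WC c-myc cells, the last of these overlapping WA v-src cells.

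The c-myc change of Snai1 was -0.69 (SE 0.09, adjusted p = 3.16e-06) for WA and -0.56 (SE 0.09, adjusted p = 5.47e-05) for WC, while it rose by 1.09 (SE 0.09, adjusted p = 1.55e-08) in WB. By the F test of the difference itself the c-myc effect on Snai1 differed between lines (F = 111, adjusted p = 6.39e-09). Over the lines its mean change was -0.05 (SE 0.33). With v-src it fell by 0.86 in WA (SE 0.09, adjusted p = 2.2e-07), against -0.07 in WB and -0.10 in WC, neither called, and this effect also differed between lines (F = 21.5, adjusted p = 0.000301). Each of these calls held under every alternative tried and without each array in turn. The line accounted for 50.9% of the variance among the 9 averages, the vector for 7.01% and the combination of both for 42.1%.

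Windows of 250 bases upstream of the annotated start were examined for the E-box hexamer CACCTG or its reverse complement CAGGTG, the site that Snail and Zeb proteins bind. RefSeq promoter entries (build GRCm38.p6) were examined for 5 of the 7 members, with 8 windows in all, 4 of them for Zeb2. No window of Snai2 or Zeb1 was examined, so the counts below do not cover these members. The Snai1 window held 1 match and the other 7 windows held none, while 17.2% of 32851 such windows held one. The hexamer CACGTG, the E-box that Myc and Max bind, matched in none of the 8 windows examined and in 6.02% of all windows. A match is a description of the letters and not of binding. The Snai1 window is shown because it is the examined window with the family's own E-box. It covers chr2:167537945-167538194 of GRCm38.p6 on the + strand, ends 1 base before the start, and has the CACCTG in capitals, its first base at -126 where the base before the start is -1.
Snai1 upstream window: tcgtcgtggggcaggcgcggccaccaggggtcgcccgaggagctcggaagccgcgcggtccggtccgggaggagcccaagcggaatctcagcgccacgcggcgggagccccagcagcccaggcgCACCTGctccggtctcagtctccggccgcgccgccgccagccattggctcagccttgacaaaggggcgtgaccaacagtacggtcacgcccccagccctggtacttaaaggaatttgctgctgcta

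Snai2 codes for Slug, the Snail relative that fibroblasts and neural crest cells express, and had 2 probe sets. On 1447643_x_at the signal in WA was 3052, 3135 and 3030.2 in v-src cells, 1633, 1806 and 1815 in c-myc cells, against 4617, 4821 and 6649.7 in empty-vector cells. In WB it was 3883 and 4049 in v-src cells, 1561, 1638 and 1615 in c-myc cells, against 4131, 4012 and 3967 in empty-vector cells. In WC it was 3012, 2867 and 2529 in v-src cells, 2986, 1895 and 1598 in c-myc cells, against 6049, 4508 and 3365 in empty-vector cells. Over the 3 lines the 9 c-myc arrays reached at most 2986 and the 9 empty-vector arrays were at least 3365, so these groups did not overlap. The v-src arrays lay below the empty-vector arrays in WA and WC and overlapped them in WB. In order of group means, WA, WC and WB empty and WB v-src cells came first, and WC empty cells overlapped each of the other 3, while WA empty cells overlapped neither WB group. They were followed by WA v-src and then WC v-src cells, and the c-myc groups came last and overlapped each other. The WC c-myc arrays also overlapped the WC v-src arrays, with the c-myc array at 2986 between the v-src arrays at 2867 and 3012. On 1418673_at the group means in WA were 903 ± 164 in v-src cells, 388 ± 38 in c-myc cells and 1740.5 ± 317 in empty-vector cells (SD, n = 3). There the 9 c-myc arrays ranged between 365 and 1049 and the 9 empty-vector arrays between 1039 and 2106, overlapping by 1 array. The platform table gives no accession for 1447643_x_at, and its suffix marks probes that can hybridize to other transcripts, but the 2 probe sets ran together with r = 0.93 across the 9 averages, which share lines and vectors.

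Of the 17 probe sets, 3 were called lower with c-myc over the lines, against 9.05% of all probe sets tested, and 0 were called higher, against 9.85%. Both Snai2 probe sets were among the 3. They fell by 1.34 (SE 0.17, adjusted p = 0.00385, n = 3 lines) on 1447643_x_at and by 1.42 (SE 0.28, adjusted p = 0.0137) on 1418673_at, 2.52-fold and 2.68-fold. Within lines 1447643_x_at changed by -1.58 in WA, -1.32 in WB and -1.11 in WC, each called, and 1418673_at by -2.09, -1.20 and -0.97 in the same order, each called. The difference of the c-myc effect between lines was called for 1418673_at (F = 7.94, adjusted p = 0.0242) and not for 1447643_x_at (adjusted p = 0.392). Without line WA the fall of 1418673_at was 1.09 and lost its call (adjusted p = 0.103). The summed fibroblast markers were also lower in c-myc than in empty-vector cells, and their part in the Snai2 result was not tested.

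With v-src Snai2 fell in WA and WC but was not called over the lines. In WA the change was -0.78 (SE 0.18, adjusted p = 0.00177) on 1447643_x_at and -0.93 (SE 0.21, adjusted p = 0.00172) on 1418673_at. In WC it was -0.69 (SE 0.18, adjusted p = 0.00456) and -1.27 (SE 0.21, adjusted p = 4.98e-05), and in WB, where neither was called, -0.03 and -0.18. Between lines, the difference of the effect missed the threshold on both probe sets (adjusted p = 0.11 and 0.0558), although that of 1447643_x_at was called without WC empty replicate 3 (adjusted p = 0.0325) or WC c-myc replicate 1 (adjusted p = 0.0339). Over the lines the changes were -0.50 (SE 0.17, adjusted p = 0.0894) and -0.79 (SE 0.28, adjusted p = 0.103). Without WC empty replicate 1 the WC change of 1447643_x_at was -0.48 (adjusted p = 0.0506). v-src cells had more Snai2 signal than c-myc cells by 0.84 (SE 0.17, adjusted p = 0.00972) on 1447643_x_at, while on 1418673_at the difference of 0.63 was not called (adjusted p = 0.146), with 1.16 in WA, 1.02 in WB and -0.30 in WC. Of the variance of 1447643_x_at, 90.6% went with the vector and 0.13% with the line, and for 1418673_at the vector share was 76.5%.

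**Figure D3:**
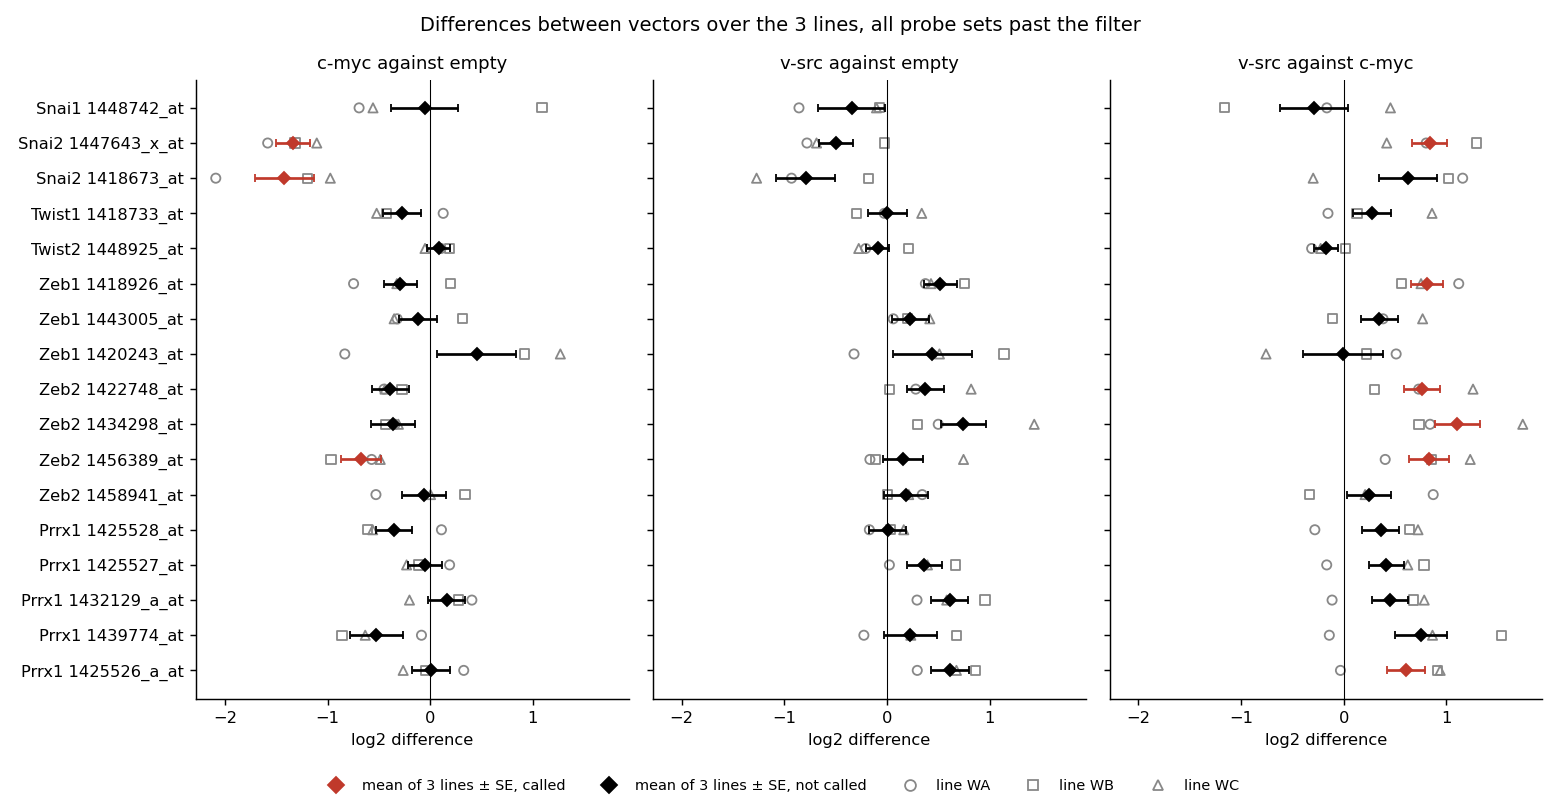
Log2 difference of each of the 17 probe sets past the filter for c-myc against empty, v-src against empty and v-src against c-myc over the lines. Diamonds are means of 3 lines with their SE, red where called, and open grey symbols are the single lines. Both Snai2 probe sets lie at -1.34 and -1.42 in the first panel, no diamond is red in the second, and the red ones of Snai2, Zeb1, Zeb2 and Prrx1 lie right of 0 in the third.

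Zeb1, the repressor that holds epithelial genes off together with its partner CtBP, had 3 probe sets past the filter. On 1418926_at the signal in WA was 2510.2, 2576 and 2382 in v-src cells, 1153, 1120.1 and 1121 in c-myc cells, against 2089, 2002 and 1675 in empty-vector cells. WB arrays read 1929 and 2071 in v-src cells, 1209, 1381 and 1456 in c-myc cells, against 1322, 1171 and 1036 in empty-vector cells. WC arrays read 4895, 5827 and 5573 in v-src cells, 3111, 3475 and 3038 in c-myc cells, against 3557, 4129.7 and 4411 in empty-vector cells. All 9 arrays of WC lay at 3038 or above, and the 17 arrays of WA and WB lay between 1036 and 2576. In every line the v-src arrays lay above the empty-vector and the c-myc arrays. Across the groups the highest mean was that of WC v-src cells. The lowest were those of WB c-myc, WB empty and WA c-myc cells, and the WB empty arrays overlapped both neighbours.

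Over the lines Zeb1 1418926_at was higher in v-src than in c-myc cells by 0.81 (SE 0.16, adjusted p = 0.00897). The differences of the single lines were 1.12 (WA), 0.56 (WB) and 0.75 (WC). Against the empty vector it rose with v-src within each line, WA by 0.37 (SE 0.10, adjusted p = 0.00801), WB by 0.76 (SE 0.11, adjusted p = 1.94e-05) and WC by 0.43 (SE 0.10, adjusted p = 0.00231), but its change over the lines of 0.52 (SE 0.16, adjusted p = 0.0666) was not called. With c-myc it fell by 0.75 in WA (adjusted p = 3.45e-06) and by 0.32 in WC (adjusted p = 0.0152) and was 0.20 in WB, where it was not called, and this effect differed between lines (F = 21.5, adjusted p = 0.000329). The v-src call in WA missed the threshold when WA empty replicate 3 was left out (0.28, adjusted p = 0.0631) and when arrays were scaled to their medians (0.20, adjusted p = 0.248). That of c-myc in WC depended on WC empty replicate 3 (-0.26 and adjusted p = 0.0818 with it left out) and on WC c-myc replicate 3 (-0.29, adjusted p = 0.0659). Without line WC the difference between v-src and c-myc cells was 0.84 (adjusted p = 0.0678).

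Zeb1 1443005_at was dimmer, with group means between 189 and 479.7, ran with 1418926_at (r = 0.92 across the 9 averages) and had no called vector change. Zeb1 1420243_at, for which the platform table gives no accession, had group means between 37.0 and 138 and ran with neither (r = 0.22 and 0.13). It was called only with c-myc in WC, where it rose by 1.27 (SE 0.40, adjusted p = 0.0148), the opposite direction to 1418926_at. It missed the threshold with WC empty replicate 1 left out (1.04, adjusted p = 0.0817) and likewise with replicate 3 of that group left out (1.13, adjusted p = 0.0552).

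Zeb2, which codes for the Smad-interacting repressor SIP1, had 4 probe sets past the filter. On 1422748_at the signal in WA was 1135, 1129.7 and 1057 in v-src cells, 619.6, 796 and 576 in c-myc cells, against 999, 1028 and 726 in empty-vector cells. In WB it was 654 and 674 in v-src cells, 458, 532 and 628 in c-myc cells, against 620.1, 669.5 and 670.2 in empty-vector cells. In WC it was 849.5, 755 and 844 in v-src cells, 231, 330.2 and 453 in c-myc cells, against 498, 469 and 393 in empty-vector cells. The v-src arrays lay above all c-myc arrays in each line, and in WC they also lay above all empty-vector arrays. WA v-src cells had the highest mean and did not overlap the next group, WA empty cells, and WC c-myc cells had the lowest mean and overlapped WC empty cells. On 1434298_at the WC arrays read 809.7, 623 and 636 in v-src cells, 250.1, 118 and 221 in c-myc cells, against 284, 225 and 213 in empty-vector cells. The v-src arrays of WC again stood apart.

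Against c-myc cells, v-src cells had higher signals of 6 of the 17 probe sets over the lines, against 11.1% of all probe sets tested, and lower signals of 0, against 13.8%. Of these 6, 3 belonged to Zeb2. They were 1422748_at at 0.76 (SE 0.18, adjusted p = 0.0178), 1434298_at at 1.11 (SE 0.22, adjusted p = 0.00918) and 1456389_at at 0.83 (SE 0.20, adjusted p = 0.0178). In WA, WB and WC the differences were 0.73, 0.30 and 1.26 on 1422748_at, 0.84, 0.73 and 1.75 on 1434298_at, and 0.40, 0.85 and 1.23 on 1456389_at. The call of 1434298_at held without each line, while that of 1422748_at was lost without WA (0.78, adjusted p = 0.0948) and without WC (0.52, adjusted p = 0.106), and that of 1456389_at without WB (0.82, adjusted p = 0.0838) and without WC (0.63, adjusted p = 0.076). The summed epithelial markers lay between 3024 and 5699 in v-src cells and between 2090 and 3068 in c-myc cells, or 1406 to 1881 and 967 to 1598 without Epcam, and their part in the Zeb1 and Zeb2 results was not tested. The fourth Zeb2 probe set, 1458941_at, was dimmer and was called in no comparison.

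Under v-src alone the Zeb2 rise was called in WC, by 0.82 (SE 0.17, adjusted p = 0.000718) on 1422748_at, 1.44 (SE 0.22, adjusted p = 1.66e-05) on 1434298_at and 0.75 (SE 0.16, adjusted p = 0.000923) on 1456389_at. In WA and WB the same probe sets had changes between -0.17 and 0.50, none called. The v-src effect differed between lines on 1434298_at (adjusted p = 0.0343) and 1456389_at (adjusted p = 0.0123), and the difference was not called on 1422748_at (adjusted p = 0.0876). That of 1434298_at missed the threshold in 8 of 26 fits that left out an array (adjusted p up to 0.103). With c-myc 1456389_at fell over the lines by 0.67 (SE 0.20, adjusted p = 0.0469), with -0.57 in WA, -0.97 in WB and -0.49 in WC, each called. This call over the lines was lost without any 1 of the 3 lines (adjusted p = 0.123, 0.227 and 0.0719 without WA, WB and WC) and in 10 of the 26 fits that left out an array (adjusted p up to 0.074). Within lines, the WA call of 1456389_at was lost with WA c-myc replicate 1 left out (adjusted p = 0.0648), and its WC call with WC empty replicate 1 (adjusted p = 0.0692) or 3 (adjusted p = 0.0696) or WC c-myc replicate 1 (adjusted p = 0.0589) or 2 (adjusted p = 0.0723) left out. 1422748_at was called with c-myc in WA alone (-0.45, SE 0.17, adjusted p = 0.0438), a call lost in 12 of 26 fits that left out an array (adjusted p up to 0.169). On 1422748_at and 1434298_at the changes over the lines with c-myc were -0.39 and -0.36, not called.

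Against the empty vector 0 of the 17 probe sets were called with v-src over the lines by limma, beside 6.53% of all probe sets called higher and 7.17% called lower. An unadjusted p under 0.05 was found for 6, and the share of all probe sets at that level was not counted. Arrays entered as separate values, and so taken as independent, gave 8 calls, beside 8689 of all 23134 probe sets. A random block of line and vector gave 7, beside 5859 of all. The 6 were Prrx1 1432129_a_at (0.61, SE 0.18, adjusted p = 0.0586), Prrx1 1425526_a_at (0.61, SE 0.19, adjusted p = 0.0658), Zeb2 1434298_at (0.75, SE 0.22, adjusted p = 0.0591) and Zeb1 1418926_at, which were higher, and the 2 Snai2 probe sets, which were lower. The c-myc and v-src comparisons share their empty-vector arrays.

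Twist1, which is known from skull and limb mesenchyme, had 1 probe set, 1418733_at. In WA its signal was 1146, 1042 and 1274 in v-src cells, 1242, 1374 and 1233 in c-myc cells, against 1176, 1239.7 and 1103 in empty-vector cells. In WB it was 1696 and 1719 in v-src cells, 1627, 1609 and 1448 in c-myc cells, against 2244, 1945 and 2139 in empty-vector cells. In WC it was 2351, 1996 and 2146 in v-src cells, 1335, 1155 and 1061 in c-myc cells, against 1847, 1816 and 1470.4 in empty-vector cells. In WA all 3 groups overlapped, in WB both oncogene groups lay below the empty-vector arrays, and in WC the v-src arrays lay above and the c-myc arrays below them. WC v-src and WB empty cells had the highest means and overlapped, and the arrays of WA c-myc, WC c-myc, WA empty and WA v-src cells, the lowest groups, overlapped too. With c-myc it fell by 0.43 in WB (adjusted p = 0.00288) and by 0.52 in WC (adjusted p = 0.000271) and changed by 0.13 in WA, not called. The c-myc effect differed between lines (F = 11.9, adjusted p = 0.00547), a call lost with median scaling (adjusted p = 0.257). With v-src it rose in WC by 0.34 (SE 0.10, adjusted p = 0.014) and had -0.30 in WB, not called (adjusted p = 0.0585). The WB change was called without WB empty replicate 2 (-0.36, adjusted p = 0.0452), WC empty replicate 3 (adjusted p = 0.0393), WC c-myc replicate 1 (adjusted p = 0.0408) or WC c-myc replicate 3 (adjusted p = 0.0497). The rise in WC missed the threshold when WC empty replicate 3 (0.24, adjusted p = 0.107) or WC v-src replicate 1 was left out (0.28, adjusted p = 0.0816) and with median scaling (0.39, adjusted p = 0.109).

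Twist2, the Twist1 relative of dermal fibroblasts, had 1 probe set, 1448925_at. In WA its signal was 2609, 2463 and 2178 in v-src cells, 3234, 2917 and 2854 in c-myc cells, against 3188, 2952 and 2293 in empty-vector cells. The signals of WB were 3167 and 3159.9 in v-src cells, 3111, 2977 and 3287 in c-myc cells, against 2835, 2649 and 2728 in empty-vector cells. Those of WC were 1242, 1118 and 1205 in v-src cells, 1142, 1341 and 1755 in c-myc cells, against 1369, 1556 and 1405 in empty-vector cells. All 9 WC arrays lay between 1118 and 1755 and all 17 arrays of WA and WB between 2178 and 3287. Among WA and WB groups only the WA v-src and WA empty arrays reached below 2649. No vector change of Twist2 was called in any line or over the lines, where it was 0.08 (SE 0.11, adjusted p = 0.652) with c-myc and -0.09 (SE 0.11, adjusted p = 0.63) with v-src. Without WA empty replicate 3 its v-src change in WA was -0.35 (adjusted p = 0.0403), and without WC c-myc replicate 3 its v-src change in WC, -0.27, was called as well (adjusted p = 0.0431). The line took 95.2% of its variance among the 9 averages and the vector 1.79%.

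Prrx1, which marks limb bud and other connective tissue progenitors, had 5 probe sets past the filter. On 1425528_at the signal in WA was 4198, 3859.6 and 4047 in v-src cells, 5011, 4696 and 5015 in c-myc cells, against 4899, 5151 and 3716 in empty-vector cells. For WB the signals were 4912 and 5329 in v-src cells, 3290.2, 3429 and 3116 in c-myc cells, against 5062, 4699 and 5267 in empty-vector cells. For WC they were 3210.2, 3132 and 2908 in v-src cells, 1969, 1947 and 1666 in c-myc cells, against 2672, 2847 and 2726 in empty-vector cells. In WB and WC the c-myc arrays lay below both other groups, and in WA they overlapped the empty-vector arrays. WB v-src, WB empty, WA c-myc and WA empty cells had the highest means and overlapped, and WC c-myc cells had the lowest and overlapped no group. On 1432129_a_at the WB arrays read 2934 and 2678 in v-src cells, 1848, 1731 and 1650.3 in c-myc cells, against 1415, 1151 and 1811 in empty-vector cells. There the v-src arrays lay above the others, and the c-myc and empty-vector arrays overlapped.

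The Prrx1 probe sets did not move alike with c-myc. Those called lower were 1425528_at, by -0.61 in WB (adjusted p = 3.41e-05) and -0.56 in WC (adjusted p = 4.59e-05), and 1439774_at, by -0.86 in WB (adjusted p = 4.36e-05) and -0.63 in WC (adjusted p = 0.000658). Those called higher were 1432129_a_at, by 0.41 (SE 0.12, adjusted p = 0.0104) in WA, and 1425526_a_at, by 0.33 (SE 0.11, adjusted p = 0.0268) in WA. Both of these rises were lost with median scaling (0.29 and 0.21, adjusted p = 0.291 and 0.349) and without WA c-myc replicate 2 (0.35 and 0.25, adjusted p = 0.055 and 0.133). That of 1425526_a_at also missed the threshold without WA empty replicate 3 (0.27, adjusted p = 0.111), WA empty replicate 2 (adjusted p = 0.0571) or WA c-myc replicate 3 (0.30, adjusted p = 0.0806). Without WA empty replicate 3, 1439774_at was also lower with c-myc in WA (-0.34, adjusted p = 0.00667). 1425527_at was not called with c-myc in any line. Which Prrx1 transcripts each probe set detects was not examined. Across the 9 averages the pairs of Prrx1 probe sets correlated with r between 0.66 and 0.97.

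With v-src 4 Prrx1 probe sets rose in WB, by 0.96 on 1432129_a_at (adjusted p = 8.73e-06), 0.86 on 1425526_a_at (adjusted p = 1.44e-05), 0.68 on 1439774_at (adjusted p = 0.00154) and 0.67 on 1425527_at (adjusted p = 0.000275). In WC 3 of them rose, 1425526_a_at by 0.68 (adjusted p = 5.84e-05), 1432129_a_at by 0.58 (adjusted p = 0.000641) and 1425527_at by 0.39 (adjusted p = 0.0101). The last missed the threshold with WC empty replicate 1 left out (0.32, adjusted p = 0.0616) and with median scaling (0.44, adjusted p = 0.0535). In WA none was called, with changes between -0.22 and 0.30. The change of 1425526_a_at there, 0.30, was called in 5 fits that left out an array (adjusted p of 0.04 to 0.0479) and that of 1432129_a_at without WB empty replicate 2 (adjusted p = 0.0423) or 3 (adjusted p = 0.0373). Without WA empty replicate 3 both 1425528_at (-0.32, adjusted p = 0.00547) and 1439774_at (-0.48, adjusted p = 0.000478) fell with v-src in WA, and 1439774_at rose in WC (0.23, adjusted p = 0.0375). Over the lines no Prrx1 change with v-src was called, but without line WA those of 1425526_a_at (0.77, adjusted p = 0.0347) and 1432129_a_at (0.77, adjusted p = 0.0464) were. The difference of the v-src effect between lines was called for 1425527_at (adjusted p = 0.0323), 1432129_a_at (adjusted p = 0.0451) and 1439774_at (adjusted p = 0.0117). That of 1432129_a_at missed the threshold in 18 of 26 fits that left out an array (adjusted p up to 0.18). Over the lines v-src cells exceeded c-myc cells on 1425526_a_at by 0.61 (SE 0.19, adjusted p = 0.0468). The single lines had -0.03 (WA), 0.91 (WB) and 0.94 (WC). That call was lost without WB (0.45, adjusted p = 0.255), without WC (0.44, adjusted p = 0.273) and without WA c-myc replicate 1 (0.57, adjusted p = 0.0711), WA v-src replicate 3, WB c-myc replicate 1 or WC empty replicate 3. Without WA the other 4 Prrx1 probe sets were higher in v-src than in c-myc cells, by 0.68 to 1.20 (adjusted p of 0.0162 to 0.0356).

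The parental lines also differed with the empty vector alone. WA had higher signals than WC on 9 of the 17 probe sets and lower ones on 3 (13.9% and 13.6% of all probe sets tested), and WB had higher signals than WC on 9 and lower ones on 2 (15.7% and 15%). WA exceeded WB on 1 and fell below it on 1 (11.7% and 12.2%). Zeb1 1418926_at was lower than in WC by 1.06 in WA (adjusted p = 2.32e-08) and by 1.76 in WB (adjusted p = 3.62e-12), and WA exceeded WB by 0.70 (SE 0.10, adjusted p = 1.52e-05). Twist2 exceeded its WC level by 0.94 (SE 0.12, adjusted p = 1.78e-06) in WA and 0.91 (SE 0.12, adjusted p = 2.52e-06) in WB. Twist1 was lower in WA than in WB by 0.83 (SE 0.10, adjusted p = 1.28e-06) and lower in WA than in WC by 0.53 (adjusted p = 0.000301), a call lost with median scaling (-0.31, adjusted p = 0.176). Snai1 was higher than in WC by 0.36 in WA and 0.33 in WB, both called. Zeb2 1456389_at exceeded its WC level by 1.31 in WA and 1.12 in WB, and Prrx1 1425528_at by 0.72 and 0.86, all called. The Snai2 probe sets were not called between any pair of lines. Without WA empty replicate 3 or without WC c-myc replicate 1, 5 of the 17 probe sets were called between WA and WB, and without WC c-myc replicate 3, 4. The numbers over all probe sets in these fits are not given here, so these counts are not read as particular to the members. Since each line is 1 line, these differences describe WA, WB and WC and not a population of lines.

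**Figure D4:**
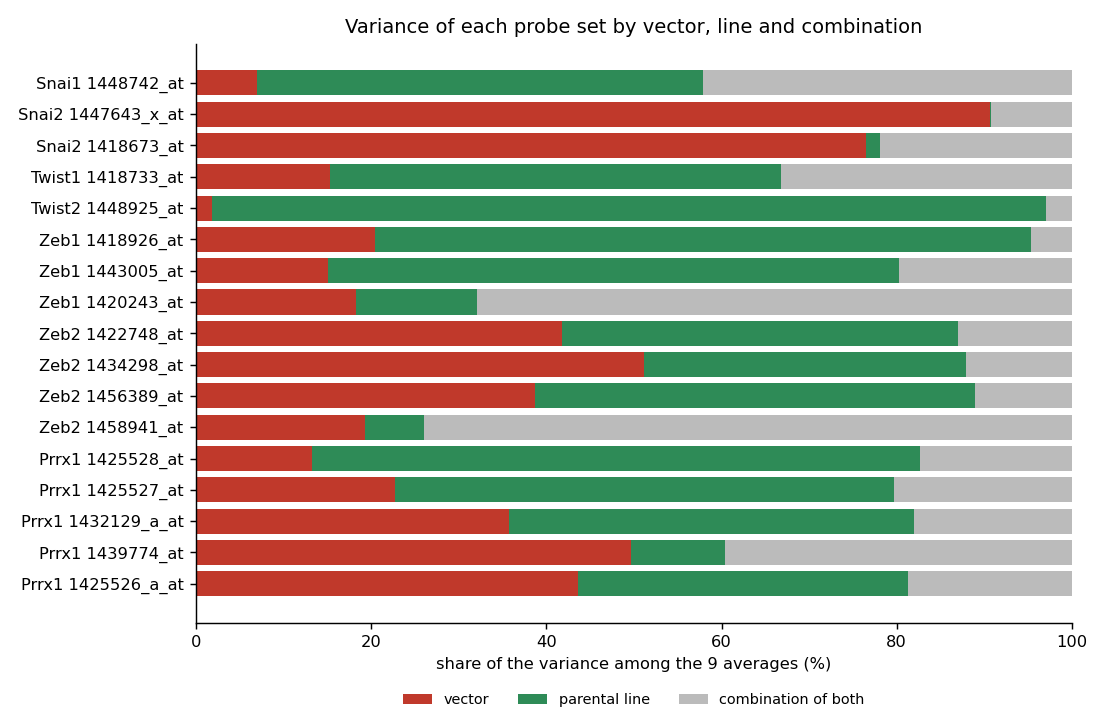
Share of the variance among the 9 averages (%) that went with the vector, the parental line and their combination, for each of the 17 probe sets past the filter. The vector takes most of the Snai2 bars (90.6% and 76.5%), the line most of the Twist2 (95.2%) and Zeb1 1418926_at (74.9%) bars, and Snai1 has a combination share of 42.1%.

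Across the 9 averages Twist2 and Zeb1 ran in opposite directions (r = -0.90), Twist2 and Prrx1 together (r = 0.78), as did Zeb2 and Prrx1 (r = 0.68), while Snai1 and Snai2 showed no such relation (r = -0.06). These values describe 9 averages that share 3 lines and 3 vectors. Among 13019 other genes, the one most like Snai2 was Txndc16 (r = 0.99), followed by Nynrin and Fndc3b (r = 0.97 each). Most like Twist2 were Irx2 (r = 0.98), Trex2 (r = 0.97) and Grb10 (r = 0.96), and most like Zeb1 were Rictor, Ap1s1 (r = 0.97 each) and Tmem135 (r = 0.96). Il17ra was nearest to Snai1 (r = 0.92), Slco2a1 to Twist1 (r = 0.96), Smcr8 to Zeb2 (r = 0.94) and Adcy6 to Prrx1 (r = 0.96). By Spearman's rho in place of Pearson's r, 3 of the nearest 5 genes were the same for Snai2 and Zeb2, 2 for Twist1, 1 each for Snai1, Zeb1 and Prrx1, and 0 for Twist2.

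Other transcription factors of mesenchyme were measured with 1 probe set per gene, 23 of a list of 30 past the filter. With c-myc 0 rose and 6 fell, beside 9.85% and 9.05% of all probe sets tested, and the median change was -0.47 beside 0.04 for all genes tested. Klf4, a zinc finger factor known from growth arrest and reprogramming, fell by 1.70 (SE 0.20, adjusted p = 0.00333). Msx1, a homeobox factor of limb and craniofacial mesenchyme, fell by 0.96 (adjusted p = 0.0452), Osr1, an odd-skipped related factor, by 0.77 (adjusted p = 0.0344) and Glis2, a Gli-like zinc finger factor, by 0.75 (adjusted p = 0.0236). With v-src 1 rose and 6 fell, beside 6.53% and 7.17% of all probe sets, and the median was -0.38 beside 0.02. The one that rose was Foxf2, a forkhead factor of gut and lung mesenchyme, at 1.82 (SE 0.21, adjusted p = 0.00217). Klf4 (-1.57, adjusted p = 0.00312), the Prrx1 relative Prrx2 (-1.42, adjusted p = 0.016) and Ebf1, an early B cell factor (-0.90, adjusted p = 0.00585), were lower. Against c-myc cells 3 were higher in v-src cells, Foxf2 by 1.36 (adjusted p = 0.00335), Osr1 by 1.34 (adjusted p = 0.00349) and Hmga2, a chromatin protein, by 1.16 (adjusted p = 0.0233), and 2 were lower, beside 11.1% and 13.8% of all probe sets. Prrx2 was 1 of these (-0.96, adjusted p = 0.0409). Without line WA, WB or WC, 2, 6 and 1 of the 23 fell with c-myc and 4, 3 and 4 with v-src, 1 rose with v-src each time, and 2, 4 and 2 were higher and 1, 1 and 2 lower in v-src than in c-myc cells. Over all probe sets the calls then numbered 834, 2300 and 695 with c-myc, beside 2279 higher and 2093 lower with all lines. They numbered 1383, 939 and 1110 with v-src, beside 1510 higher and 1659 lower. Between v-src and c-myc cells they numbered 2965, 3414 and 2232, beside 2578 higher and 3185 lower. Counts of the lists below without a line stand beside these numbers. These gene lists were chosen with earlier results of these data known. They are described by counts, medians and the changes of named genes, and no list was tested as a set.

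A list of 9 basic helix-loop-helix and Id genes held the E proteins that pair with Twist (Tcf3, Tcf4 and Tcf12), the 4 Id proteins that bind E proteins and keep them from DNA, and Scx and Tcf15, which code for the mesodermal factors scleraxis and paraxis. All 9 passed the filter. With c-myc 0 were called by limma, beside 9.85% of all probe sets called higher and 9.05% called lower. An unadjusted p under 0.05 was found for 1, and the share of all probe sets at that level was not counted. With v-src Id3 fell by 1.38 (SE 0.13, adjusted p = 0.00144), with group means of 2684 in v-src and 7568 in empty-vector cells of WA, 2548 and 5428 in WB, and 2101 and 6407 in WC. It was the only one called, beside 7.17% of all probe sets called lower. Against c-myc cells, v-src cells were lower in Id1 (-1.12, adjusted p = 0.0079), Id2 (-1.03, adjusted p = 0.0128) and Id3 (-1.20, adjusted p = 0.00115), 3 of 9 beside 13.8% of all probe sets. With WA, WB or WC left out, 2, 1 and 1 fell with v-src and 2, 3 and 3 were lower in v-src than in c-myc cells.

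Of 18 tested corepressors and chromatin partners of Snail and Zeb, 6 rose with c-myc and 0 fell, beside 9.85% and 9.05% of all probe sets, with a median of 0.28 beside 0.04 for all genes. Sirt1, a deacetylase, rose by 0.92 (SE 0.11, adjusted p = 0.00347), Parp1, the poly(ADP-ribose) polymerase, by 0.89 (SE 0.11, adjusted p = 0.00385), Ezh2, the Polycomb methyltransferase, by 0.50 (adjusted p = 0.0126) and Kdm1a, the histone demethylase LSD1, by 0.45 (adjusted p = 0.0119). With v-src 2 rose and 1 fell, beside 6.53% and 7.17% of all probe sets. Ajuba, a LIM protein that Snail recruits, fell by 0.73 (SE 0.11, adjusted p = 0.00506), while Rcor1, the corepressor CoREST, rose by 0.44 (adjusted p = 0.0422) and Kdm1a by 0.32 (adjusted p = 0.043). Against c-myc cells 1 was higher in v-src cells, the Ajuba relative Wtip at 0.60 (adjusted p = 0.0129), and 6 were lower, among them Ajuba (-0.86, adjusted p = 0.00169), Parp1 (-0.83, adjusted p = 0.00219) and Sirt1 (-0.60, adjusted p = 0.00658), beside 11.1% and 13.8% of all probe sets. Without line WA, WB or WC, 2, 3 and 2 rose with c-myc, 0 rose and 1, 0 and 0 fell with v-src, and 3, 4 and 3 were lower and 0, 0 and 1 higher in v-src than in c-myc cells.

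Among 15 genes of Snail and Twist protein turnover 0 rose and 1 fell with c-myc, beside 9.85% and 9.05% of all probe sets. It was Lats2, a Hippo pathway kinase, which fell by 0.95 (adjusted p = 0.0154). With v-src 1 rose and 3 fell, beside 6.53% and 7.17% of all probe sets. Prkd1, the kinase protein kinase D1, fell by 1.08 (SE 0.16, adjusted p = 0.00563), Ctdsp1, a small C-terminal domain phosphatase, by 0.35 (adjusted p = 0.0417) and Gsk3b, the kinase that marks Snail for degradation, by 0.35 (adjusted p = 0.0374). The rise was that of Mdm2, a ubiquitin ligase best known for p53, at 0.86 (adjusted p = 0.0148). Between v-src and c-myc cells Lats2 differed by 0.82 (adjusted p = 0.0184) and Prkd1 by -0.82 (adjusted p = 0.0091), 1 each way beside 11.1% and 13.8% of all probe sets. With WA, WB or WC left out, 0, 0 and 1 fell with c-myc, 1, 1 and 0 fell and 1, 0 and 0 rose with v-src, and 0, 1 and 1 were higher and 0, 1 and 0 lower in v-src than in c-myc cells.

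TGF beta is the best known inducer of Snail and Zeb genes, and all 22 listed genes of its pathway passed the filter. With c-myc 0 rose and 5 fell, beside 9.85% and 9.05% of all probe sets, with a median of -0.47 beside 0.04. Tgfbr2, the type II receptor, fell by 1.30 (SE 0.11, adjusted p = 0.00202). Ltbp2, which codes for a relative of latent TGF beta binding proteins, fell by 2.05 (SE 0.40, adjusted p = 0.0128), and the latent TGF beta binding proteins Ltbp1 by 0.77 (adjusted p = 0.0056) and Ltbp3 by 0.62 (adjusted p = 0.0118). With v-src 1 rose and 7 fell, beside 6.53% and 7.17% of all probe sets. Ltbp2 fell by 2.53 (SE 0.40, adjusted p = 0.00698) and Smad6, an inhibitory Smad, had a change of -2.48 (SE 0.19, adjusted p = 0.000826). The ligands Tgfb2 and Tgfb3 fell by 2.22 (adjusted p = 0.0035) and by 1.93 (adjusted p = 0.0102), and Ltbp3 by 1.59 (adjusted p = 0.000826). The gene that rose was Tgfbr3, which codes for the coreceptor betaglycan, at 1.53 (SE 0.24, adjusted p = 0.00636). Against c-myc cells 5 were higher in v-src cells and 5 lower, beside 11.1% and 13.8% of all probe sets. Tgfbr3 differed by 2.12 (adjusted p = 0.00124), Tgfb2 by -1.99 (adjusted p = 0.00302), Smad6 by -1.93 (adjusted p = 0.000873) and the ligand Tgfb1 by 1.47 (adjusted p = 0.00926). Without line WA, WB or WC, 2, 7 and 1 of the 22 fell with c-myc and 4, 5 and 4 with v-src, the number that rose with v-src was 1, 0 and 1, and 3, 5 and 3 were higher and 5, 5 and 3 lower in v-src than in c-myc cells.

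Of 37 epithelial genes that Snail and Zeb proteins are known to repress, 22 passed the filter. With c-myc 0 rose and 1 fell, beside 9.85% and 9.05% of all probe sets. It was Pkp1, a desmosomal plakophilin, which fell by 1.94 (SE 0.45, adjusted p = 0.0221). With v-src 0 rose and 3 fell, beside 6.53% and 7.17% of all probe sets. Cdh3, which codes for P-cadherin, fell by 2.59 (SE 0.40, adjusted p = 0.00626), and Pkp1 and Pkp2 had changes of -1.94 and -1.47. Against c-myc cells 2 were lower in v-src cells, Cdh3 (-2.93, adjusted p = 0.00238) and Pkp2 (-1.95, adjusted p = 0.000604), beside 13.8% of all probe sets. The numbers at an unadjusted p under 0.05 were 3 with c-myc and 6 with v-src, and the share of all probe sets at that level was not counted. Without line WA, WB or WC, 0, 1 and 0 fell and 0, 1 and 0 rose with c-myc, 2 fell each time and 0, 1 and 0 rose with v-src, and 2 were lower each time and 0, 2 and 0 higher in v-src than in c-myc cells. Epcam, an epithelial adhesion molecule, did not pass on 1416579_a_at (group means from 5.84 up to 26) and had group means of 492 to 3818 on 1447899_x_at, where the change with v-src of 1.41 was not called (adjusted p = 0.126).

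Of 34 mesenchymal effector genes tested, 0 rose and 19 fell with c-myc, beside 9.85% and 9.05% of all probe sets, with a median of -0.63 beside 0.04 for all genes. Dcn, the proteoglycan decorin, fell by 2.80 (SE 0.76, adjusted p = 0.0371), while Pdgfra, 1 of the PDGF receptors, had a change of -2.72 (SE 0.39, adjusted p = 0.00481) and Wnt5a, a Wnt ligand, a change of -1.78 (SE 0.48, adjusted p = 0.0369). Tnc, the matrix protein tenascin C, fell by 1.33 (adjusted p = 0.00898), and Cdh2, which codes for N-cadherin, by 0.50 (adjusted p = 0.0148). With v-src 2 rose and 17 fell, beside 6.53% and 7.17% of all probe sets, with a median of -0.44 beside 0.02. Those that rose were Dcn at 3.34 (SE 0.76, adjusted p = 0.025) and Mmp3, the protease stromelysin 1, at 3.17 (SE 0.42, adjusted p = 0.00357). Postn, which codes for periostin, fell by 2.61 (SE 0.44, adjusted p = 0.00841), Pdgfrb, the other PDGF receptor, by 1.87 (SE 0.21, adjusted p = 0.00217), Cdh2 by 0.40 (adjusted p = 0.0382) and Vim, the intermediate filament vimentin, by 0.23 (SE 0.06, adjusted p = 0.0385). Fn1, which codes for fibronectin, had changes of -0.41 with c-myc and -0.43 with v-src and was not called (adjusted p = 0.0587 and 0.0638). Against c-myc cells 7 genes were higher in v-src cells and 6 lower, beside 11.1% and 13.8% of all probe sets. Dcn was higher by 6.14, Mmp3 by 3.42 (adjusted p = 0.00167), Pdgfra by 3.38 and Lum, the proteoglycan lumican, by 2.49 (adjusted p = 0.0373). Without line WA, WB or WC, 9, 12 and 9 of these genes fell with c-myc, 12, 7 and 11 fell and 2, 1 and 1 rose with v-src, and 6, 6 and 7 were higher and 5, 2 and 3 lower in v-src than in c-myc cells. Calls over all probe sets were also fewer without a line, 834, 2300 and 695 with c-myc, beside 2279 higher and 2093 lower with all lines. This list shares members such as Pdgfra, Dcn, Vim and Fn1 with the fibroblast markers.

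**Figure D5:**
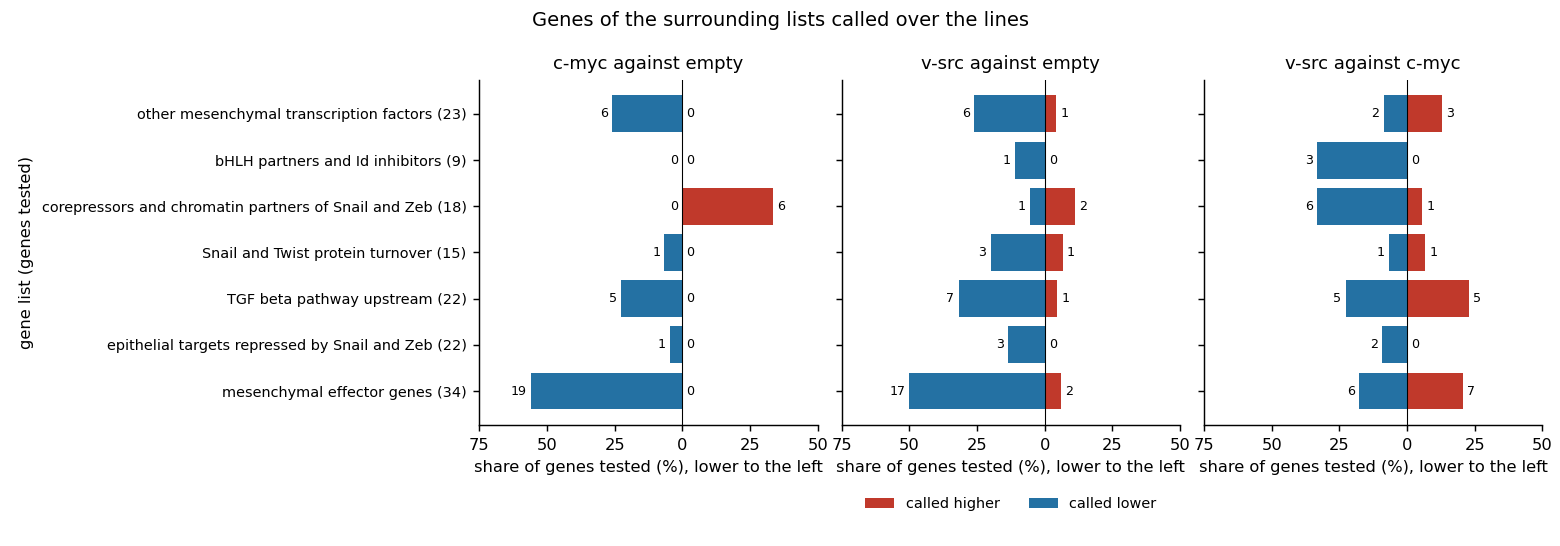
Share of tested genes (%) called lower (blue, left) and higher (red, right) over the lines in 7 gene lists, with the number of genes at each bar, for c-myc against empty, v-src against empty and v-src against c-myc. Mesenchymal effector genes have 19 of 34 lower with c-myc and 17 lower with v-src, and corepressors have 6 of 18 higher with c-myc.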

How the data were processed

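MAS5 signal intensity per probe set was deposited by the authors for 26 arrays, per the labels and the submitters' processing notes, which name no version. The intensities are on a linear scale, and every array has a trimmed mean of 500 (2% trimmed at each end), so that scaling had been done before deposit. Values go down to 0.0907, and no detection calls were used. Of 45101 probe sets, 64 controls, 932 of several genes and 9160 unnamed ones were left out of the 34945 single-gene probe sets named by the platform annotation, of which 34741 matched a RefSeq gene and 0 symbols needed updating.

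A pseudocount of 23, the 20th percentile of all values, was added before log2. Probe sets whose mean lay above the 40th percentile (a signal of 68.83) were tested in R 4.3.3 by limma 3.58.1, whose prior variance followed the intensity, with Benjamini-Hochberg adjustment over all of them at 0.05. Averages of each line and vector were fitted with line and vector over the lines (4 residual degrees of freedom). Comparisons within lines and the F test of a vector effect between lines used all 26 arrays in 9 groups (17 residual degrees of freedom). The steps were tested on simulated data. Every probe set of the members was named. From each gene list, with 1 probe set of the highest mean per gene, up to 4 called genes with the largest changes per comparison over the lines were named. Cdh1, Epcam, Cdh2, Vim and Fn1 were named in any case, and Ltbp3 and Tgfbr3 were named for v-src in addition. The 5 genes most like each member were ranked by Pearson's r across 9 averages. The members and lists were chosen with earlier results of these data known. Alternatives were other scalings, pseudocounts, filters and priors, 1 probe set a gene, arrays as separate values, a random block, a replicate block, and leaving out a line or an array. The number of arrays limits the precision. A sample description field that speaks of other material was not used.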

Additional observations from a re-analysis of the deposited data

Results flagged for a closer look

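The vector effects on these genes differed between the parental lines in 16 tests of the difference itself, an F test over the 3 lines within the fit of all 26 arrays by limma, adjusted over all probe sets tested. They were 9 of the 17 probe sets with c-myc, beside 13.6% of all, and 7 with v-src, beside 11.8%. Prrx1 had 5 of the 17 probe sets. Arrays scaled to their medians gave 3 calls with c-myc, with 1295 over all probe sets. With 1 probe set a gene there were 4 with c-myc and 2 with v-src, the latter beside 1752 over all genes. With c-myc against the empty vector the difference was called for Snai1 1448742_at (adjusted p = 6.39e-09), whose changes were -0.69 in WA, 1.09 in WB and -0.56 in WC. It was called for Zeb1 1418926_at (adjusted p = 0.000329), with -0.75 in WA, 0.20 in WB and a WC value of -0.32, and for Zeb1 1420243_at (adjusted p = 0.0229), with -0.83, 0.92 and 1.27 in the same order. Prrx1 1425528_at (adjusted p = 0.000672) had 0.11, -0.61 and -0.56, and Prrx1 1439774_at (adjusted p = 0.0174) had -0.08, -0.86 and -0.63. Prrx1 1432129_a_at (adjusted p = 0.0353) had 0.41, 0.28 and -0.20, and Prrx1 1425526_a_at (adjusted p = 0.0364) had 0.33, -0.05 and -0.26. Twist1 1418733_at (adjusted p = 0.00547) had 0.13, -0.43 and -0.52. Snai2 1418673_at (adjusted p = 0.0242) had -2.09, -1.20 and -0.97.

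With v-src against the empty vector the difference was called for Snai1 1448742_at (adjusted p = 0.000301), with -0.86 in WA, -0.07 in WB and -0.10 in WC. Zeb2 1456389_at (adjusted p = 0.0123) had -0.17, -0.11 and 0.75, and Zeb2 1434298_at (adjusted p = 0.0343) had 0.50, 0.30 and 1.44. Twist1 1418733_at (adjusted p = 0.0175) had -0.03, -0.30 and 0.34. Prrx1 1439774_at (adjusted p = 0.0117) had -0.22, 0.68 and 0.23, Prrx1 1425527_at (adjusted p = 0.0323) had 0.02, 0.67 and 0.39, and Prrx1 1432129_a_at (adjusted p = 0.0451) had 0.29, 0.96 and 0.58. The c-myc and v-src effects share the empty-vector arrays. These 16 compare 3 single lines and carry no test over a population of lines.

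Left out in turn, no single array ended the calls of Snai1 (both vectors), of Zeb1 1418926_at, Twist1, Prrx1 1425528_at and Prrx1 1439774_at with c-myc, or of Zeb2 1456389_at with v-src. The c-myc difference of Snai2 1418673_at missed the threshold with any of these left out: WA empty replicate 3 (adjusted p = 0.077), WA c-myc replicate 1 (adjusted p = 0.0609) or WA c-myc replicate 2 (adjusted p = 0.0596). Prrx1 1425526_a_at and 1432129_a_at with c-myc each lost it in 7 of 26 such fits (adjusted p up to 0.108 and 0.115), and Prrx1 1425527_at with v-src in 5 (up to 0.13). Prrx1 1432129_a_at with v-src lost it in 18 (up to 0.18) and Zeb2 1434298_at with v-src in 8 (up to 0.103). For Twist1 with v-src it was lost without WB v-src replicate 2 (adjusted p = 0.0602) or WC v-src replicate 1 (adjusted p = 0.0559), and for Prrx1 1439774_at with v-src without WB v-src replicate 3 (adjusted p = 0.0574). Zeb1 1420243_at passed the filter in 13 of the 26 fits and lost its call in 2 of these.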

How the results depend on the processing

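Of 8654 member results recomputed under 16 alternatives and 26 fits without an array, 8335 kept their side of the threshold. Among these 8335, 121 that were uncalled in both fits changed sign. Of the rest, 166 lost their call, 153 gained one and 0 reversed. The results include F tests, which have no direction. With median scaling 3 member probe sets were called for the c-myc effect between lines, and over all probe sets 3469 were called with c-myc in WB, 3665 between WA and WB, and 1295 and 1607 for the c-myc and v-src effects between lines. Higher calls then made up 36.15% in place of 52.13% with c-myc and 33.47% in place of 47.65% with v-src over the lines. In WA the shares were 34.48% in place of 53.01% with c-myc and 26.83% in place of 47.68% with v-src, and in WB 30.56% in place of 48.64% and 32.64% in place of 47.18%. Between lines they were 59.51% in place of 48.97% (WA against WB), 75.44% in place of 50.58% (WA against WC) and 69.39% in place of 51.23% (WB against WC). The median of all probe sets moved by -0.11 with c-myc in WA, -0.16 with v-src in WA, -0.12 with v-src in WB, 0.21 for WA against WC and 0.13 for WB against WC. With 1 probe set a gene, which tests fewer features, 2576 were called with c-myc, 1749 with v-src and 3324 between v-src and c-myc over the lines, 4889, 3512 and 4837 with c-myc and 3560, 3320 and 3765 with v-src in WA, WB and WC, 3395, 3881 and 4232 between WA and WB, WA and WC, and WB and WC, and 1752 for the v-src effect between lines. The members called were then 1 with c-myc and 3 between v-src and c-myc over the lines, 4 and 4 with c-myc in WA and WB, 1 and 4 with v-src in WB and WC, 6 and 6 for WA and WB against WC, and 4 and 2 for the c-myc and v-src effects between lines. Without an intensity trend 4 members were called for the v-src effect between lines. With arrays as separate values 10012, 8689 and 10537 probe sets and 8, 8 and 13 members were called with c-myc, with v-src and between v-src and c-myc over the lines. A random block of line and vector (consensus correlation 0.27) gave 7231 with c-myc and 5859 with v-src, and 6, 7 and 11 members in the 3 comparisons. Without WA 834, 1383 and 2965 probe sets were called and 2 members with v-src, without WB 2300, 939 and 3414, and without WC 695, 1110 and 2232 with 3 members between v-src and c-myc. Without both WA empty replicate 3 and WB c-myc replicate 3, an alternative chosen after seeing the data, 5 members were called between WA and WB. Without each array in turn the members called were 0 to 1 with v-src over the lines, 2 to 5 between WA and WB, and 5 to 9 and 3 to 10 for the c-myc and v-src effects between lines, and 3303 to 6042 probe sets were called with v-src in WB, the lowest without WB v-src replicate 2. The cause of these changes was not tested. Where no number over all probe sets stands beside a count of members, that count is not read as particular to the members. Same-numbered arrays did not deviate together (median r = -0.012 over 100 pairs, 8 of 26 arrays closest to their own number), so the numbers were not taken as pairs. With the replicate number as a block 8081, 5730 and 7815 probe sets were called with c-myc in WA, WB and WC. The block changed these member calls: Prrx1 1425526_a_at lost its c-myc difference between lines (adjusted p = 0.0508), Prrx1 1432129_a_at its v-src difference (adjusted p = 0.0613) and Zeb2 1422748_at its c-myc fall in WA (-0.45, adjusted p = 0.0506), and Snai2 1418673_at gained a v-src difference (adjusted p = 0.0234). Signals near the filter limit the dim probe sets, such as Zeb1 1420243_at.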
